A study of Mus musculus with 4 samples.

Results

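The *Hox* genes encode homeodomain transcription factors that stand in 4 clusters on different chromosomes. The 38 genes described here are those named Hox, a cluster letter from a to d and a paralog number in the larynx RNA-seq tables, out of 46983 genes listed per library. There were 10 genes of the HoxA cluster, 10 of HoxB, 9 of HoxC and 9 of HoxD. Within a cluster, genes with low paralog numbers lie at the 3′ end and are expressed furthest toward the head, and genes with higher numbers begin progressively nearer the tail. Genes with the same number in different clusters descend from one ancestral gene and often act together. In the head and neck, *Hox* genes of low number give identity to the segments of the hindbrain, the neural crest that leaves them and the pharyngeal arches, from which the laryngeal region is built. Retinoic acid activates the 3′ genes of the clusters, and their proteins bind DNA together with partners of the PBX and MEIS families.

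RNA came from larynx tissue of mouse embryos at E10.5, staged at 32 to 35 somites and described in the study's methods as vocal fold tissue. There were 2 pools of *Shh*-/- larynxes and 2 pools of wild-type (WT) larynxes, with 3 larynxes in each pool. The WT embryos were Swiss Webster. The mutants carry Shhtm1amc, a null allele of *Shh* kept on a Swiss Webster background. The sample labels write their genotype as Shh+/-, whereas the series design and the study write *Shh*-/-, which is used here. The pools are numbered as in the labels, *Shh*-/- pools 1 and 2 and WT pools 4 and 6. A germline null removes *Shh* in every tissue from the start of development, and each pool mixes epithelium, mesenchyme, nerve and blood. The labels do not say whether pools came from separate litters, so p-values measure only the spread between these pools.

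Levels are given as TPM, transcript abundance corrected for gene length and scaled to sum to 1000000 in a library, so that different genes can be compared. Values in a sentence are given for *Shh*-/- pools 1 and 2 and then for WT pools 4 and 6. *Shh*-/- pool 1 was the shallowest library, with 1.37 Gb of aligned sequence against 2.85 to 3.13 Gb in the others. *Shh* itself measured 10.4 and 10.8 TPM in the mutant pools and 23.7 and 42.1 TPM in WT. *Ptch1*, a receptor and target of hedgehog (HH) signaling, measured 12.9 and 13.8 TPM against 57.8 and 55.1 TPM (limma adjusted p = 0.0319), without overlap between the genotypes. Values per gene do not show which exons of *Shh* the mutant reads come from, so they check neither the null allele nor the written genotype. Markers of foregut epithelium were present in every library. The splanchnic mesoderm marker *Foxf1* was at 0.848 and 9.57 TPM in the mutant pools against 72.3 and 64.6 TPM in WT (limma adjusted p = 0.0976). Of the 9 listed markers of that tissue, 7 were lower and 2 higher in the mutant mean.

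The *Hox* transcripts of the E10.5 larynx came almost entirely from genes numbered 1 to 5. In WT, *Hoxb3* was highest at 60.9 and 47.8 TPM, followed by *Hoxb4* at 45.8 and 39.3 TPM and *Hoxa2* at 27.2 and 28.2 TPM, with no overlap between neighbors in this order. *Hoxa4*, *Hoxa3*, *Hoxb2*, *Hoxa5*, *Hoxb1* and *Hoxc4* came next, between 13.5 and 21.8 TPM, and each overlapped its neighbor in rank. *Hoxb5* and *Hoxd3* overlapped each other below them, and *Hoxd4*, *Hoxc5*, *Hoxb6* and *Hoxd1* followed in separate steps. In the *Shh*-/- pools *Hoxb3* was again highest, at 78.6 and 78.0 TPM, and *Hoxa2* was next. From *Hoxa3* in rank 3 to *Hoxc4* in rank 12, each gene overlapped its neighbor in the mutant pools. Between the genotypes *Hoxa4* stood at rank 4 in WT and 9 in *Shh*-/-, *Hoxa5* at 7 and 11, and *Hoxd3* at 11 and 6.

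**Figure D1:**
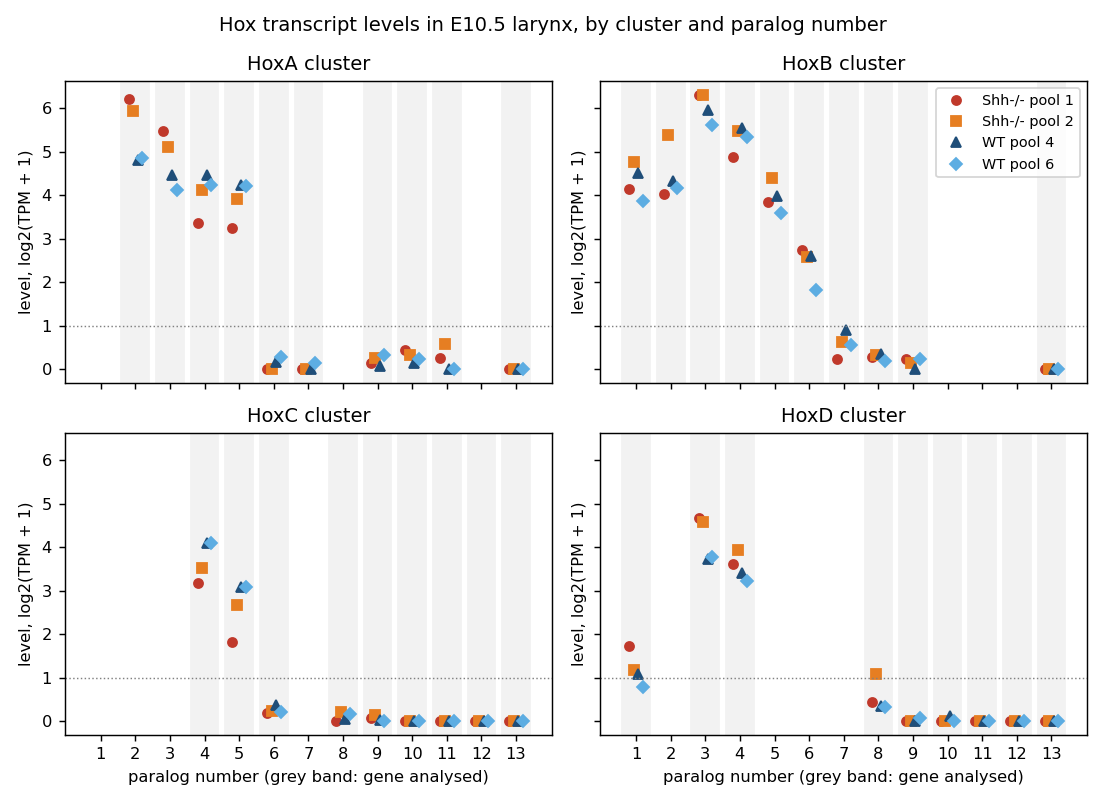
Level of each *Hox* gene in every library on the log2(TPM + 1) scale, by paralog number on the x axis, with 1 panel per cluster and a grey band where a gene was analysed. The dotted line marks 1 TPM. Points stand above the line at paralogs 1 to 5, apart from *Hoxd1*, which lies close to it, and are near or below it from paralog 7 on, and within HoxA the mutant pools lie above WT at paralogs 2 and 3 and below WT at paralogs 4 and 5.

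The direction of the difference between the genotypes varied with paralog number. All 5 genes of paralogs 2 and 3 were higher in the *Shh*-/- mean, and 5 of the 7 genes of paralogs 4 and 5 were lower. Each gene was compared on log2(TPM + 1) with limma, a linear model that shares its estimate of the spread across genes, and *p*-values were adjusted by Benjamini-Hochberg over the 16972 genes with a mean of at least 1 TPM. The log2 fold change (log2FC) subtracts WT from *Shh*-/-, and is given with its standard error (SE). The added 1 makes it too small for genes of low TPM. Of the 38 *Hox* genes, 15 could be tested, 10 with a positive and 5 with a negative fold change. Only *Hoxa2* passed an adjusted p of 0.05 with limma, and it rose, 1 gene of 15 where 0.725% of all tested genes were called (0.560% higher and 0.165% lower). An unadjusted p under 0.05 was reached by 6 of the 15, where 24.8% of all tested genes reached it (17.5% higher and 7.22% lower). At a looser adjusted p of 0.10, *Hoxa3* and *Hoxd3* joined *Hoxa2*, where 5.06% of all tested genes passed. The pools did not overlap for 10 of the 15 genes, 6 higher and 4 lower, against 60.7% of all tested genes (38.0% higher and 22.7% lower). The share of 10 in 15 is thus near the background. The median fold change was 0.46 over the 15 genes and 0.08 over all tested genes. This order rests on *Shh*-/- pool 2, since without it the medians were 0.0545 and 0.11, and without WT pool 6 they were 0.14 and 0.06. By exact permutation, 2 pools against 2 cannot give a p below 0.333, so no such test was used. In whole-tissue RNA, fewer cells expressing a gene and less RNA per cell cannot be told apart.

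**Figure D2:**
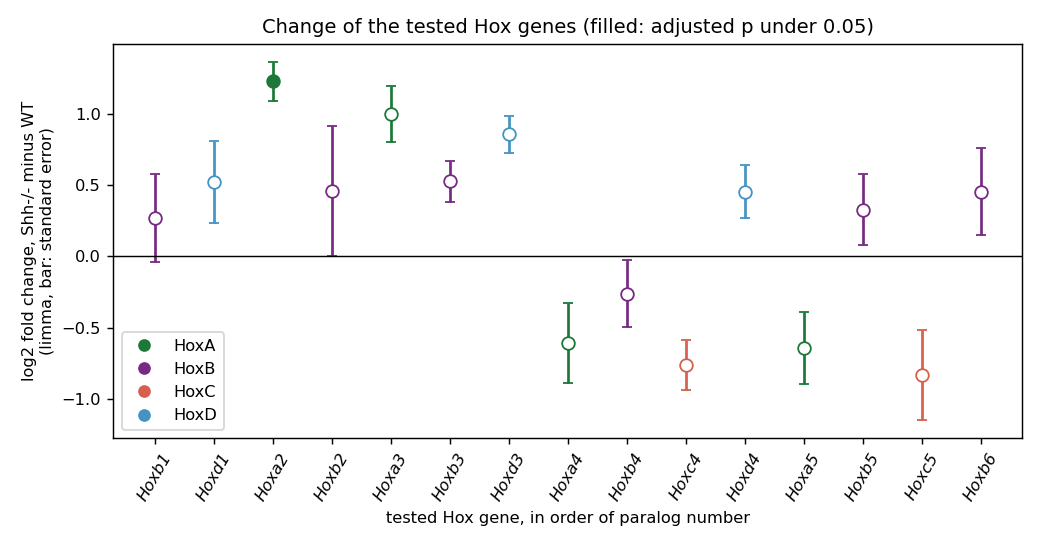
Log2 fold change (*Shh*-/- minus WT, limma) of the 15 tested *Hox* genes in order of paralog number, colored by cluster, with bars for the standard error. The filled point, *Hoxa2* at 1.23, passed an adjusted p of 0.05. Every paralog 2 and 3 gene lies above 0, and at paralogs 4 and 5 only *Hoxd4* and *Hoxb5* do.

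*Hoxa2* (ENSMUSG00000014704.10, mm10 chromosome 6, 52162417 to 52164831, minus strand) sets the identity of the second pharyngeal arch. Its level was 73.2 and 60.1 TPM in the mutant pools and 27.2 and 28.2 TPM in WT. Both mutant pools stood above both WT pools, by 2.41-fold in the means (log2FC 1.23, SE 0.14, limma adjusted p = 0.0478). The fold change stayed between 1.09 and 1.37 with any pool left out, while the adjusted p ranged from 0.0412 to 0.179 over the alternatives and passed the threshold in only some of them. *Hoxb2*, its paralog, acts in hindbrain segments and facial nerve formation. It measured 15.2 and 41.0 TPM against 19.1 and 16.9 TPM. The 2 mutant pools lay on either side of WT, and the fold change of 0.46 turned to −0.23 without *Shh*-/- pool 2.

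*Hoxa3* (chromosome 6, 52169062 to 52213336), which is needed for the thymus, parathyroid and throat cartilages, measured 43.9 and 33.5 TPM in the mutant pools against 21.1 and 16.4 TPM in WT. The groups did not overlap and the means differed 2.06-fold, but the adjusted p from limma was 0.0957 (log2FC 1.0, SE 0.20). *Hoxd3* (chromosome 2, 74711927 to 74748442), a gene of the upper cervical vertebrae that acts with *Hoxa3*, measured 24.4 and 22.8 TPM against 12.3 and 12.8 TPM. Its pools were tight within each genotype and 1.88-fold apart (log2FC 0.86, SE 0.13, limma adjusted p = 0.0697). *Hoxb3*, the most abundant of the set, measured 78.6 and 78.0 TPM against 60.9 and 47.8 TPM. It was also separated, by a smaller step of 1.44-fold (log2FC 0.53, SE 0.15, limma adjusted p = 0.136). The median fold change over the 5 genes of paralogs 2 and 3 was 0.86. Of them, 4 were higher without overlap of the pools, where 38.0% of all tested genes were.

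The promoters of 5 genes are shown as examples from both sides of the split, with *Hoxa2*, *Hoxa3* and *Hoxd3* higher and *Hoxa5* and *Hoxc4* lower in the mutant pools. Each is the RefSeq window (GRCm38.p6) from 250 bases before to 50 bases after a start site, on the strand of the gene, 5′ to 3′. The windows are chr6:52164782-52165081 (minus strand) for *Hoxa2*, chr6:52213018-52213317 (minus) for *Hoxa3*, chr2:74711743-74712042 (plus) for *Hoxd3*, chr6:52204538-52204837 (minus) for *Hoxa5* and chr15:103034145-103034444 (plus) for *Hoxc4*. The *Hoxc4* window lies at a start site 15461 bases downstream of the gene's first listed base. The *Hoxd3* window also holds the first listed base of *Hoxd4* (74711929, plus strand), so it is not particular to *Hoxd3*. Capitals mark matches, on either strand, to letters associated with the regulators of these clusters.
Hoxa2: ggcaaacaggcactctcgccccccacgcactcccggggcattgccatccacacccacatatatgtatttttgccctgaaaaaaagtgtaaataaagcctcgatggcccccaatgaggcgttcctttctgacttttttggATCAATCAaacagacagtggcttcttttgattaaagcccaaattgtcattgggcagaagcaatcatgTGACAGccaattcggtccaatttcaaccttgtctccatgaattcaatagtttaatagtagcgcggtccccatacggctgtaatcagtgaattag
Hoxa3: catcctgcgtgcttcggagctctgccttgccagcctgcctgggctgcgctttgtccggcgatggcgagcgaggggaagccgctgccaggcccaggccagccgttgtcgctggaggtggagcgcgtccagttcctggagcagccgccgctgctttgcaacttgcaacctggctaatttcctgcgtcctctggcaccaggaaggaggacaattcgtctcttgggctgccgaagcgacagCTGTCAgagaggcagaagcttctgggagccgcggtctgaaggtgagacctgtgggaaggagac
Hoxd3: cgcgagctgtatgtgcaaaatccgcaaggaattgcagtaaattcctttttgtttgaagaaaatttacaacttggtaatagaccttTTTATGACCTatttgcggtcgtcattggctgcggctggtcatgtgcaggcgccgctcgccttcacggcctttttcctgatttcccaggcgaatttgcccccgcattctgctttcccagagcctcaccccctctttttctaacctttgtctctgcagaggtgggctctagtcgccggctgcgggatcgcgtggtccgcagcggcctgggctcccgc
Hoxa5: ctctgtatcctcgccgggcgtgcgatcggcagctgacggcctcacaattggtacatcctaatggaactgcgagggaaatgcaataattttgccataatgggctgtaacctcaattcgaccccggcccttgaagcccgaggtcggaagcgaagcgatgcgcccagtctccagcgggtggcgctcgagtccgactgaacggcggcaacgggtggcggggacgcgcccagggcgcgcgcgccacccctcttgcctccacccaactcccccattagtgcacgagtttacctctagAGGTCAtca
Hoxc4: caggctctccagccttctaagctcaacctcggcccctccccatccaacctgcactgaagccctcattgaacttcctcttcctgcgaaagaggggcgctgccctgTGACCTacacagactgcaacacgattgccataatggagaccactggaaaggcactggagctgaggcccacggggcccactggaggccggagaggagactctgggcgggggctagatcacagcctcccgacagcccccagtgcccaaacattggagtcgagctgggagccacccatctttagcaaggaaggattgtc

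Windows were found for 22 of the 38 genes, 24 windows in all, and searched on both strands beside 32851 promoters of the same length. None was found for *Hoxb3*, *Hoxa4* or *Hoxc5*, whose pools also did not overlap. The GLI core GACCACCCA, bound by the transcription factors of the HH pathway, was in 0 of the 24 *Hox* windows and in 0.253% of all promoters. The retinoic acid receptor half-site AGGTCA was in 7 of 24 (29.2%) against 16.3% of all promoters. It was found at position −161 from the *Hoxd3* start, where it overlaps the caudal (CDX) motif TTTATG, at −146 from the *Hoxc4* start and at 41 bases past the *Hoxa5* start. The PBX-HOX motif TGATNNAT was in 4 windows (16.7%, against 8.85%), among them *Hoxa2* at position −111 from its start. The MEIS motif TGACAG was in *Hoxa2* and *Hoxa3* only (8.33%, against 19.2%), and TTTATG was in 5 windows (20.8%, against 11.9%). The half-site thus occurred in windows of genes on both sides of the split. A match describes letters in a short window and not a bound site, and the absence of a match says only that those letters are not in it.

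*Hoxc4* and *Hoxc5* were the expressed genes of HoxC, and both were lower in the mutant pools. *Hoxc4* (chromosome 15, 103018934 to 103036852), which is needed for normal esophageal muscle, measured 8.01 and 10.4 TPM against 16.2 and 16.2 TPM in WT. Both mutant pools were below WT (log2FC −0.76, SE 0.17, limma adjusted p = 0.109). *Hoxc5*, a gene of cervical and upper thoracic levels, measured 2.53 and 5.39 TPM against 7.46 and 7.47 TPM. It had the most negative fold change of the set (−0.83, SE 0.32, limma adjusted p = 0.197), which was −0.41 without the shallower pool 1. Neither gene passed the threshold. *Hoxc5* shares 166 exonic bases, 5.37% of its own, with *Hoxc10*, which was listed at 0 in every library.

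In HoxA, paralogs 4 and 5 lay on the other side of WT from *Hoxa2* and *Hoxa3*. *Hoxa4* measured 9.35 and 16.3 TPM in the mutant pools against 21.2 and 17.7 TPM in WT. *Hoxa5*, required for the trachea, the lung and the laryngeal skeleton, measured 8.47 and 14.1 TPM against 17.8 and 17.5 TPM. For both genes the mutant pools were below WT without overlap, and pool 1 was the lower of the mutant pools. Their fold changes were −0.61 (standard error 0.28) and −0.64 (standard error 0.25), with limma adjusted p = 0.253 and 0.204. Without pool 1 they were −0.23 and −0.31, so both depend on that pool for much of their size. *Hoxa4* and *Hoxa5* lie in the same 98.5 kb as *Hoxa2*, on the same strand, and the listed spans of *Hoxa3*, *Hoxa4* and *Hoxa5* overlap, although no exonic base is shared among them.

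Paralogs 4 and 5 of HoxB and HoxD had other patterns. *Hoxb4*, the second most abundant gene in WT, measured 28.3 and 43.8 TPM against 45.8 and 39.3 TPM, and its pools overlapped (log2FC −0.26, or 0.05 without *Shh*-/- pool 1). *Hoxb5*, which acts in lung branching and enteric neurons, measured 13.3 and 20.0 TPM against 14.8 and 11.1 TPM, also with overlap (log2FC 0.33, or 0.0545 without *Shh*-/- pool 2). *Hoxd4* measured 11.2 and 14.3 TPM against 9.60 and 8.32 TPM. It was the member of these paralogs with both mutant pools above WT (log2FC 0.46, SE 0.18, limma adjusted p = 0.212), and its fold change was 0.29 without *Shh*-/- pool 2. *Hoxd4* shares 388 exonic bases with *Hoxd3*, which is 13.2% of *Hoxd4* and 9.26% of *Hoxd3*, so part of the signal of either could belong to the other. The median fold change over the 7 genes of paralogs 4 and 5 was −0.61. Pools did not overlap for 4 genes lower and 1 higher, against 22.7% and 38.0% of all tested genes. In either direction this is 5 of 7, near the 60.7% of all tested genes.

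*Hoxb1*, which gives the facial segment of the hindbrain its identity, measured 16.7 and 26.2 TPM in the mutant pools against 21.8 and 13.5 TPM in WT. The pools of the genotypes overlapped, and the fold change of 0.27 (standard error 0.31, limma adjusted p = 0.603) changed sign without *Shh*-/- pool 2 or without WT pool 6. *Hoxd1*, expressed in sensory neurons among other places, was the lowest tested member at 2.32 and 1.26 TPM against 1.10 and 0.730 TPM. Its mutant pools stood just above WT (log2FC 0.52, SE 0.29, limma adjusted p = 0.316), and the fold change was 0.25 without *Shh*-/- pool 1, 0.80 without pool 2 and 0.86 with a pseudocount of 0.1. *Hoxb6* was the most posterior gene above the filter and measured 5.68 and 5.01 TPM against 5.07 and 2.51 TPM. Its pools overlapped, with WT pool 6 apart from the other libraries, and its fold change of 0.46 was 0.062 without that pool and 0.85 without WT pool 4.

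The remaining 23 genes had a mean under 1 TPM and were not tested. Of these, 14 had a value above 0 in some library and 9 were listed at 0 in every library, namely *Hoxa13*, *Hoxb13*, *Hoxc10* to *Hoxc13* and *Hoxd11* to *Hoxd13*. The highest value among them was 1.11 TPM, for *Hoxd8* in *Shh*-/- pool 2, whose other values were 0.346, 0.280 and 0.249 TPM. *Hoxb7* measured 0.177 and 0.551 TPM in the mutant pools against 0.855 and 0.463 TPM in WT. *Hoxa11*, a limb and urogenital gene, was listed at 0 in both WT pools and at 0.198 and 0.484 TPM in the mutant pools. *Hoxa6* was listed at 0 in both mutant pools and at 0.121 and 0.211 TPM in WT. At these levels a 0 in such a table may also be a failed estimate, and no fold is given. The 16 genes of paralogs 9 to 13 summed to 0.885 and 1.14 TPM in the mutant pools and to 0.257 and 0.649 TPM in WT. The posterior genes were therefore near 0 in both genotypes.

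Summed over the 38 genes, *Hox* transcripts took 342.9 and 395.5 TPM of the mutant pools and 303.7 and 258.6 TPM of WT, a 1.31-fold higher mean without overlap. The clusters did not move together. HoxA summed to 135.6 and 125.0 TPM against 87.7 and 80.6 TPM (1.55-fold higher), and HoxD to 38.2 and 39.5 TPM against 23.4 and 22.2 TPM (1.71-fold higher). HoxC was lower, at 10.7 and 16.2 TPM against 24.0 and 24.0 TPM, which is 1.78-fold higher in WT. HoxB held the most transcripts of the clusters, and its sums overlapped at 158.4 and 214.8 TPM against 168.6 and 131.9 TPM. These sums are descriptions and were given no test.

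By paralog number the composition shifted in both mutant pools. Paralogs 2 and 3 summed to 235.2 and 235.4 TPM in the mutant pools against 140.7 and 122.2 TPM in WT. They made up 68.6 and 59.5% of the *Hox* transcripts in the mutant pools and 46.3 and 47.3% in WT. Paralogs 4 and 5 summed to 81.2 and 124.3 TPM against 132.9 and 117.6 TPM, which overlap. As a share they were 23.7 and 31.4% in the mutant pools against 43.8 and 45.5% in WT. The shares of a library sum to 100%, so a higher share of one group lowers the others without any fall in their level.

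**Figure D3:**
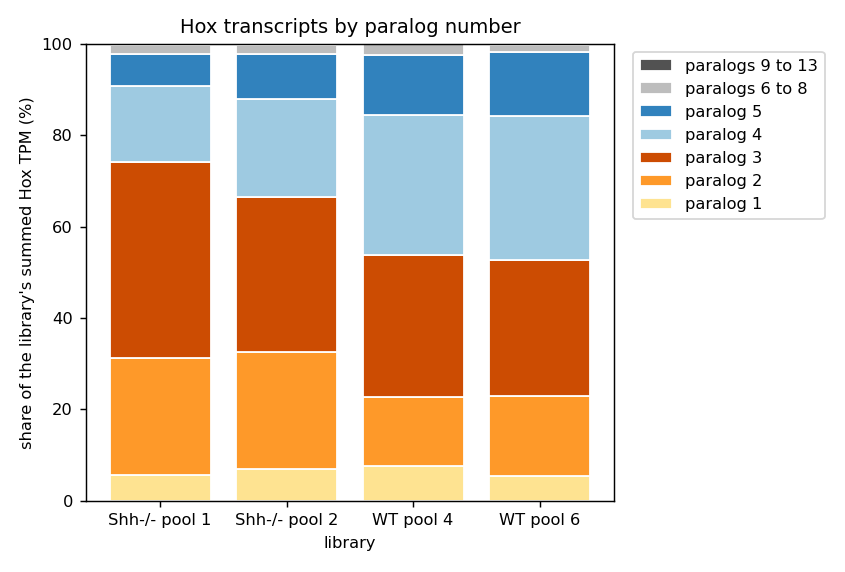
Share of each library's summed TPM of the 38 *Hox* genes, in percent, by paralog number, with 1 stacked bar per library. Paralogs 2 and 3 (orange) fill 68.6 and 59.5% of the *Shh*-/- bars and 46.3 and 47.3% of the WT bars, and paralogs 4 and 5 (blue) fill 23.7 and 31.4% against 43.8 and 45.5%.

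Ratios between genes of one library do not depend on the scaling of that library. *Hoxa2* over *Hoxa5* was 8.64 and 4.26 in the mutant pools against 1.52 and 1.61 in WT. *Hoxa3* over *Hoxa4*, neighbors on the same strand, was 4.69 and 2.05 against 0.995 and 0.927. The anterior gene of each pair was thus well above its partner in the mutant pools, and *Hoxa3* and *Hoxa4* were nearly level in WT. These pairs set a gene with a positive over one with a negative fold change, so they restate those differences and add no separate evidence. *Hoxb3* over *Hoxb4* was 2.78 and 1.78 against 1.33 and 1.22, the same order with a smaller gap. *Hoxd3* over *Hoxd4*, the pair that shares exonic bases, was 2.18 and 1.60 against 1.28 and 1.54, with mutant pool 2 close to WT pool 6. *Hoxc4* over *Hoxc5* did not separate the genotypes, at 3.16 and 1.93 in the mutant pools against 2.17 and 2.17 in WT. Between clusters, *Hoxa2* over its paralog *Hoxb2* overlapped, at 4.81 and 1.46 in the mutant pools against 1.42 and 1.67 in WT. *Hoxc4* over its paralog *Hoxd4* was 0.716 and 0.731 in the mutant pools and 1.69 and 1.95 in WT. The order of these 2 paralogs was thus inverted between the genotypes. This pair and *Hoxb3* over *Hoxb4* also set genes of opposite fold change against each other, so they too add no separate evidence.

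**Figure D4:**
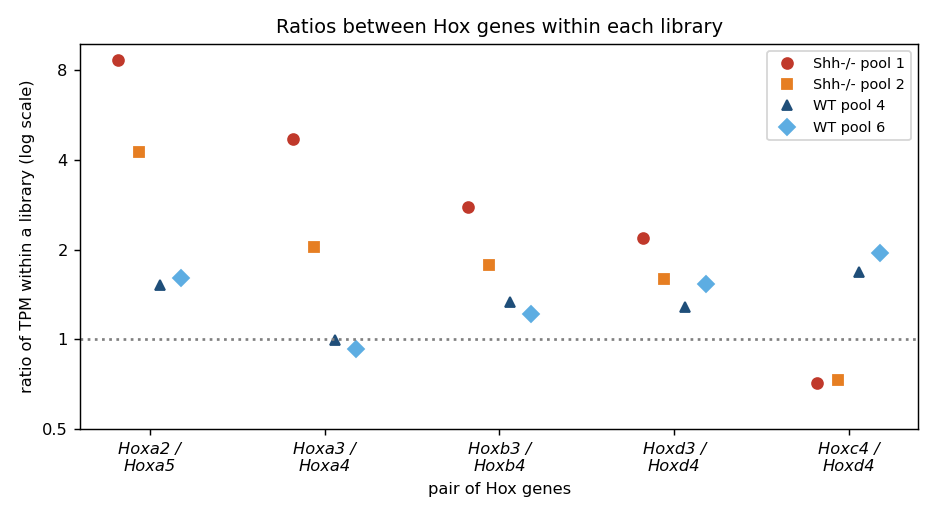
Ratio of TPM between pairs of *Hox* genes within each library, on a log axis, with 1 point per library and the dotted line at equal levels. The mutant pools lie above WT for the 4 plotted pairs of a lower over a higher paralog number, and below 1 for *Hoxc4* over *Hoxd4*, where WT is at 1.69 and 1.95.

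The partners of Hox proteins were expressed at high levels and did not pass the threshold. Of 9 TALE homeodomain genes of the Pbx, Meis and Pknox families, 7 had positive and 2 negative fold changes, with a median of 0.26. By limma 0 were called in either direction and 4 of the 9 had an unadjusted p under 0.05, against 24.8% of all tested genes. *Meis3* measured 42.1 and 41.4 TPM in the mutant pools against 28.6 and 25.2 TPM in WT (log2FC 0.62, SE 0.12, limma adjusted p = 0.0951). *Pbx4*, a low member at 4.69 and 3.15 TPM against 1.94 and 2.15 TPM, had the largest fold change (0.67, SE 0.24, limma adjusted p = 0.178).

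Among genes that act upstream of the clusters, those for retinoic acid turnover showed the widest gaps between the genotypes. Of 13 regulators listed, 9 were tested, 6 with positive and 3 with negative fold changes. Past the threshold with limma, 2 rose and 0 fell, where 0.560% of all tested genes rose and 0.165% fell. Those 2 were *Cyp26a1* and *Cyp26c1*, enzymes that degrade retinoic acid. *Cyp26a1* measured 37.0 and 24.2 TPM in the mutant pools against 2.50 and 2.35 TPM in WT (log2FC 3.17, SE 0.24, limma adjusted p = 0.0323). *Cyp26c1* measured 8.15 and 4.82 TPM against a listed 0 and 0.116 TPM (limma adjusted p = 0.0459). Both mutant pools were above both WT pools for each enzyme. As with *Hoxa2*, these calls were not kept in every alternative, and their adjusted p reached 0.146 and 0.168.

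Genes for the synthesis and reception of retinoic acid went in both directions. *Aldh1a2*, the enzyme that makes retinoic acid in embryonic mesoderm, measured 8.52 and 52.6 TPM in the mutant pools against 99.2 and 80.7 TPM in WT. Both mutant pools were lower, but they were far apart, and the fold change of −2.0 had an SE of 0.81 (limma adjusted p = 0.211), with a range from −3.25 to −0.75 over the pools left out. *Rarb*, a retinoic acid receptor whose own gene responds to retinoic acid, measured 19.3 and 29.6 TPM against 49.8 and 60.9 TPM (log2FC −1.17, SE 0.23, limma adjusted p = 0.0957). The other receptors *Rara* and *Rarg* had positive fold changes of 0.36 and 0.76. The 5 *Hox* genes with a negative fold change were each lowest in *Shh*-/- pool 1, where *Aldh1a2* was lowest as well, and the part of the enzyme in those levels was not tested. The caudal genes *Cdx2* and *Cdx4* were listed at 0 in every library.

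**Figure D5:**
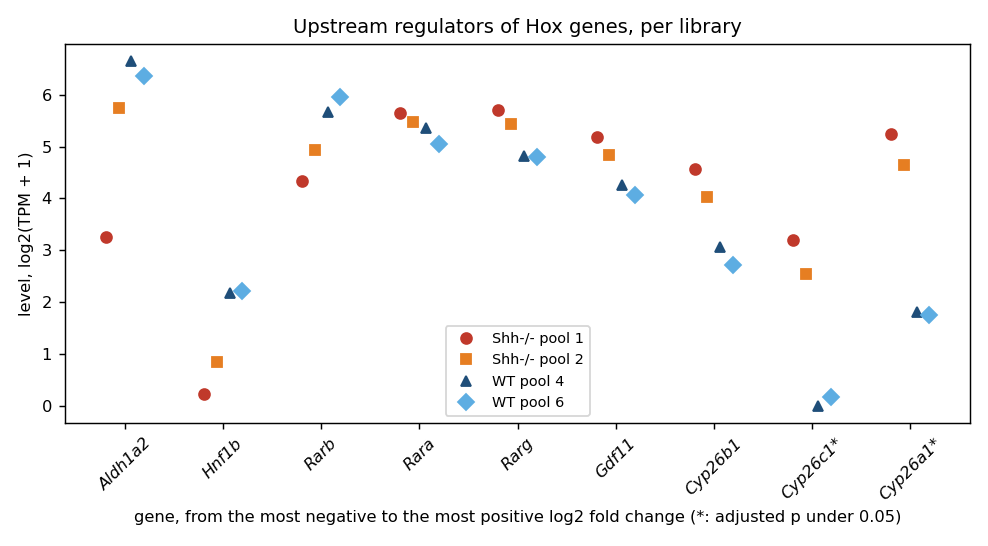
Level of the 9 tested upstream regulators in each library on the log2(TPM + 1) scale, ordered from the most negative to the most positive fold change, with asterisks for an adjusted p under 0.05 (limma). *Aldh1a2* at 8.52 and 52.6 TPM in the mutant pools stands at the left below WT, and *Cyp26a1* at 37.0 and 24.2 TPM stands at the right above WT.

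Related homeobox genes and chromatin regulators gave 0 calls by limma. An unadjusted p under 0.05 was reached by 3 of 4 and 7 of 14 tested genes, against 24.8% of all tested genes. Of 10 extended Hox and ParaHox genes only 4 were tested, 2 with positive and 2 with negative fold changes, led by *Mnx1* (−0.86, limma adjusted p = 0.145) and *Meox1*, a somite gene (0.82, limma adjusted p = 0.0823). *Evx2*, *Pdx1*, *Gsx1* and *Gsx2* were listed at 0 in every library. Of 14 Polycomb and Trithorax genes, which keep the clusters silent or active, all were tested and 8 had positive and 6 negative fold changes (median 0.25). The largest of these were for the Polycomb genes *Pcgf2* at 0.68 and *Ring1* at 0.63, with limma adjusted p = 0.170 and 0.114.

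The clusters hold other transcripts, many of them antisense. Of 42 further genes whose span overlaps the interval from the first to the last of the described genes of a cluster, 12 were tested, 7 with positive and 5 with negative fold changes, with a median of 0.18. By limma 0 were called, and 3 of the 12 had an unadjusted p under 0.05, near the 24.8% of all tested genes. *Hoxaas2*, an antisense transcript in HoxA, measured 20.97 and 16.1 TPM in the mutant pools against 12.04 and 10.1 TPM in WT (log2FC 0.69, limma adjusted p = 0.135). *Gm14426* in HoxD had the largest fold change, 1.41 with an SE of 0.57 (limma adjusted p = 0.211). The library kit preserves strand, but whether strand was used in counting is not stated in the sources used here, so reads of a *Hox* gene and of an antisense partner over the same bases may be mixed. *Hoxb5os*, antisense to *Hoxb5* and *Hoxb6*, was listed at 0 in both mutant pools and at 1.24 and 1.68 TPM in WT, and it was named after its values were seen.

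Genes flanking the clusters had no common direction. Within 250 kb on either side lie 62 other genes, of which 27 were tested, 13 with positive and 14 with negative fold changes. Their median was −0.00, below that of all tested genes. A single one of the 27 was called, against 0.725% of all tested genes. This was *Atp5g1*, which encodes a subunit of mitochondrial ATP synthase and lies 118.6 kb from HoxB. It measured 122.4 and 117.6 TPM in the mutant pools against 23.7 and 20.9 TPM in WT (log2FC 2.38, SE 0.12, limma adjusted p = 0.0319). Its adjusted p reached 0.146 over the alternatives, so this call was not kept in all of them. *Gm27861*, beside HoxA, had the next largest fold change (−1.70, SE 1.25, limma adjusted p = 0.422), which rests on WT pool 4 at 18.9 TPM, where the other libraries held 0.355 to 0.623 TPM.

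Markers of several cell types differed between the genotypes. Of all tested genes, limma called 0.560% higher and 0.165% lower, and the counts of called markers stand beside these shares. Of 12 neuronal markers 11 were higher and 7 called by limma, and their summed level was 932 and 1013 TPM in the mutant pools against 331 and 278 TPM in WT. All 9 markers of pharyngeal arch mesenchyme were higher, 2 of them called, with sums of 578 and 417 TPM against 195 and 170 TPM. Of 8 neural crest markers, 7 were tested, with 0 called and 4 at an unadjusted p under 0.05 (against 24.8% of all tested genes). All 7 were higher, and the list summed to 136 and 126 TPM against 92.8 and 76.8 TPM. Their part in the higher levels of paralogs 2 and 3 was not tested. For neural tube, 3 of 9 markers were tested, 2 higher and 1 lower with 0 called. Their list summed to 25.4 and 27.6 TPM against 29.8 and 18.7 TPM, which overlap, and *Dbx1* and *Dbx2* were listed at 0 in every library.

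Mesodermal markers moved in both directions. The counts called here again stand beside 0.560% of all tested genes called higher and 0.165% called lower. Of 9 splanchnic mesoderm markers 7 were lower and 1 was called lower, with sums of 50.1 and 81.4 TPM in the mutant pools against 178 and 154 TPM in WT. As for *Hoxa4*, *Hoxa5* and *Hoxc5*, pool 1 was the lowest library, and the part of this tissue in those differences was not tested. Of 8 somite markers 6 were tested and all 6 were higher, 1 of them called, at 54.9 and 62.9 TPM against 31.1 and 28.4 TPM. Of 7 cardiac markers 5 were tested, 4 higher and 1 lower with 2 called higher, at 60.5 and 100.8 TPM against 33.9 and 29.5 TPM, and *Nppa* was listed at 0 in every library. The 5 endothelial markers were higher with 0 called (5 at an unadjusted p under 0.05, against 24.8% of all tested genes), at 248 and 285 TPM against 172 and 166 TPM. The 11 foregut epithelium markers split into 6 higher and 5 lower, with overlapping sums of 763 and 660 TPM against 693 and 701 TPM. These sums hide the 2 largest fold changes of the list, both negative and neither called. *Foxa2* measured 5.34 and 9.12 TPM against 29.2 and 39.8 TPM (limma adjusted p = 0.0602). *Nkx2-1* measured 6.16 and 3.61 TPM against 15.9 and 17.9 TPM (limma adjusted p = 0.0715). The 5 tested limb markers split into 1 higher and 4 lower, the 3 tested markers of intermediate mesoderm into 2 and 1, and the 6 erythroid markers were all lower with a median of −0.25, 0 called and 0 at an unadjusted p under 0.05.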

How the data were processed

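RNA was measured in 2 *Shh*-/- and 2 WT pools of larynx tissue. Per the labels and methods, the authors made stranded poly(A) libraries with 10 cycles of amplification. The submitters' processing notes name the build mm10, HISAT2 2.1.0 and StringTie 1.3.6. The deposited tables hold read coverage per gene as StringTie gives it. Their FPKM is the authors' coverage divided by each library's aligned bases. Their TPM was rescaled by the authors to a sum of 1000000 per library. Read counts were not used, so no counting interval was computed, and precision rests on the 2 pools per genotype. Depth, taken from the ratio of coverage to FPKM, was 1.37 to 3.13 Gb of aligned sequence.

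TPM was summed per gene ID. Genes averaging at least 1 TPM (16972) were tested on log2(TPM + 1) with limma 3.58.1 under R 4.3.3, using lmFit and a trended eBayes without covariates. Benjamini-Hochberg adjustment ran over all of them, with a threshold of 0.05. The script was tested on simulated data. The members and gene lists were chosen with earlier results of these data known. All *Hox* members could be named. Of other lists, genes past the threshold and the 2 largest absolute fold changes could be named, and *Hoxb5os*, *Aldh1a2*, *Rara*, *Rarb*, *Rarg*, *Foxf1* and genes listed at 0 are exceptions. Marker lists are given by their counts, with *Foxa2* and *Nkx2-1* named as the 2 largest fold changes among foregut epithelium markers. A further gene of the same symbol form and a listed regulator are not reported here. Promoter sequences are from RefSeq (GRCm38.p6), and exon overlap is from GENCODE. Alternatives were a pseudocount of 0.1, either no filter or at least 5 TPM on average, quantile normalization or median centring, FPKM, eBayes untrended or robust, correction for GC content with length, an adjusted p of 0.10, members with no overlapping span, and each pool left out.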

Additional observations from a re-analysis of the deposited data

How the results depend on the processing

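The number of *Hox* genes called was the least stable value. *Hoxa2* was called in the reported analysis, and 0 *Hox* genes were called with a pseudocount of 0.1, with no filter, with an untrended eBayes, after correction for GC content with length, or with any pool left out (0 to 0). Its limma adjusted p was then 0.0542, 0.146, 0.0656, 0.0616 and 0.0934 to 0.179, and the cause was not tested. With no filter, or without *Shh*-/- pool 1, *Shh*-/- pool 2 or WT pool 4, 0 genes of any kind were called in either direction, so a *Hox* count of 0 there says nothing particular to *Hox* genes. Without WT pool 6, 4 genes were called higher and 12 lower. At an adjusted p under 0.10, 3 genes were called. Without a filter, 10 genes had pools higher without overlap and the median change was 0.0644, because genes near 0 enter. Among members whose span overlaps no other *Hox* gene, 3 were higher and 1 lower without overlap, since fewer genes remain. The median change ranged from 0.0545 without *Shh*-/- pool 2 to 0.55 with a pool left out, and was 0.14 without WT pool 6. The log2 ratio of the HoxC sums was −0.83 and ranged from −1.16 without *Shh*-/- pool 2 to −0.56 without pool 1. With pools left out, *Hoxb1* ranged from −0.0554 (without WT pool 6; −0.0376 without *Shh*-/- pool 2) to 0.60, *Hoxb2* from −0.23 (without *Shh*-/- pool 2) to 1.15, and *Hoxb4* from −0.57 to 0.0456 (without *Shh*-/- pool 1). Of 208 fold changes of single genes recomputed under the alternatives, 194 kept their direction and their side of the threshold. The filters, the eBayes variants and the looser threshold leave the fold change itself as it was. Only *Hoxa2* started past the threshold, so that count does not measure how stable the fold changes are.

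Median centring and quantile normalization moved the median of all tested genes from 0.08 to −0.05 and −0.01, and no tested *Hox* gene changed direction under either. No paired analysis was possible because the genotypes share no replicate numbers. With 2 pools per genotype and no read counts, a gene without a call is not shown to be equal between the genotypes. Genes under 1 TPM on average were not compared.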
